A study of Mus musculus with 22 samples.

Results

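The aryl hydrocarbon receptor pathway was followed here through 6 genes, taken by symbol and matched to their Ensembl identifiers among the 54838 genes of the count table: the receptor Ahr, its partner Arnt, the feedback genes Ahrr and Tiparp, and the target enzymes Cyp1a1 and Cyp1b1. All 6 were found. The libraries came from the ileum of female FVB/N mice aged 8 to 14 weeks. The mice were either homozygous for GRDim, a point-mutant glucocorticoid receptor that forms dimers less efficiently, or GRWT mice, both bred from crosses of heterozygous parents. The GRDim mutation is carried by every cell type of the animal, so no difference between genotypes can be assigned to one cell type by design. The mice drank either normal water or 25 mM ZnSO4 for 7 days. Of the 22 libraries, 10 were from GRWT mice (5 per drinking water) and 12 from GRDim mice (6 per drinking water). Samples were labelled either ileum, for 12 libraries, or intestinal epithelial cells (IEC), for 10 libraries; per the study's methods, IECs were obtained by adding lysis buffer and scraping the inner side of the distal ileum. The labels number the libraries but do not say outright that each came from a separate mouse, so the p-values below measure the spread between these libraries.

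The labels did not follow the tissue content. Myh11, a smooth muscle myosin, stood at 298 to 463 CPM (counts scaled to one fixed library total) in 12 libraries and at 3.22 to 20.5 CPM in the other 10, with none in between. Of the 12 libraries with muscle, 7 were labelled IEC, and of the 10 without, 7 were labelled ileum. Libraries above 100 CPM of Myh11 were therefore called muscle-rich and the others muscle-poor, and all conditions were compared within each class. The sum of the 9 other smooth muscle markers was 1350 to 2320 CPM in the muscle-rich and 179 to 239 CPM in the muscle-poor libraries. The muscle-rich class held 3 libraries of each condition. The muscle-poor class held 2 of GRWT on water, 2 of GRWT on zinc, 3 of GRDim on water and 3 of GRDim on zinc. In GRDim mice the muscle-rich water libraries were all labelled IEC and the muscle-rich zinc libraries all ileum, and the reverse held for muscle-poor libraries, so that within a class zinc and label cannot be told apart in GRDim mice. The same applied to genotype on zinc in the muscle-poor class. Depth ranged from 13149951 to 15620744 counts per library, and 3 counts, the limit that a count of 0 allows, corresponded to 0.192 to 0.228 CPM.

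One muscle-poor library stood apart. In GRWT zinc ileum replicate 3, the bile acid binding protein Fabp6, typical of the distal ileum, had 171 counts against 120182 to 147068 in the other muscle-poor libraries. The lactase gene Lct and the glucose transporter gene Slc2a2, typical of more proximal small intestine, had 62429 and 9852 counts in it. Its 6 summed ileal markers reached 1178 CPM against 10909 to 14755 CPM in the other 9 muscle-poor libraries, and its 6 summed proximal markers 16334 CPM against 28.2 to 92.4 CPM. Muscle-poor values that move most with it are given with and without it.

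The aryl hydrocarbon receptor is a transcription factor that waits in the cytoplasm in a complex with chaperones until it binds a ligand, such as an indole derived from diet, gut microbes or tryptophan breakdown. It then enters the nucleus, pairs with ARNT and binds short DNA elements with the core GCGTG, which switches on Cyp1a1, Cyp1b1, Ahrr and Tiparp. CYP1A1 and CYP1B1 oxidise many of the ligands, AHRR competes with the receptor for ARNT, and TIPARP is a mono-ADP-ribosyltransferase that limits receptor activity, so that targets close a feedback loop. In the intestine the pathway is known for its part in the upkeep of intraepithelial lymphocytes, in innate lymphoid cells that make IL-22, and in the epithelium. Cyp1a1 is widely used as a readout of receptor activity.

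The core GCGTG, read on both strands, was looked for in RefSeq promoters (GRCm38.p6), each spanning 250 bases before to 50 bases after the start of a gene as RefSeq gives it. For Cyp1a1 the RefSeq start lies 9685 bases downstream of the outermost GENCODE start of the gene (57687928), and for Tiparp 37 bases downstream. Promoters were matched by symbol for 5 of the 6 genes (Arnt, Ahrr, Tiparp, Cyp1a1 and Cyp1b1, without Ahr), and all 5 held the core, as did 32.4% of 32851 promoters. The 4 targets are shown because they are the genes that the receptor is known to switch on, and capitals mark the core or, for Tiparp and Cyp1b1, its reverse complement CACGC on the printed strand. The windows are chr9:57697363-57697662 on the plus strand for Cyp1a1, chr17:79715012-79715311 on the minus strand for Cyp1b1, chr13:74292282-74292581 on the minus strand for Ahrr and chr3:65528197-65528496 on the plus strand for Tiparp.
Cyp1a1: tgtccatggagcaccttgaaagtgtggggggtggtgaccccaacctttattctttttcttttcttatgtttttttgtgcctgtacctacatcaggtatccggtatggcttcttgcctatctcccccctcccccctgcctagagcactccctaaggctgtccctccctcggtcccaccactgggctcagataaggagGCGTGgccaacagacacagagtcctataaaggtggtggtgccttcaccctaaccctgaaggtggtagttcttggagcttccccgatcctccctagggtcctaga
Cyp1b1: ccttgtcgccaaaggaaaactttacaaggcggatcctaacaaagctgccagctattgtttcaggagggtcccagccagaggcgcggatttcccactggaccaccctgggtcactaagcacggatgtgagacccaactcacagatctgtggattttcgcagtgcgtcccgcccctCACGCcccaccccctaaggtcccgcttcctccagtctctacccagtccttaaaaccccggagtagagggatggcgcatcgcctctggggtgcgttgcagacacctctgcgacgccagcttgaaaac
Ahrr: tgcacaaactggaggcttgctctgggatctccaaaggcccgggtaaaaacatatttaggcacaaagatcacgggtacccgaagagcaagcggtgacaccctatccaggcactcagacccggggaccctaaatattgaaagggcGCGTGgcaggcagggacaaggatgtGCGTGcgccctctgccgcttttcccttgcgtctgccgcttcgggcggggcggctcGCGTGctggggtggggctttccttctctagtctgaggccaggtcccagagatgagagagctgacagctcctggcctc
Tiparp: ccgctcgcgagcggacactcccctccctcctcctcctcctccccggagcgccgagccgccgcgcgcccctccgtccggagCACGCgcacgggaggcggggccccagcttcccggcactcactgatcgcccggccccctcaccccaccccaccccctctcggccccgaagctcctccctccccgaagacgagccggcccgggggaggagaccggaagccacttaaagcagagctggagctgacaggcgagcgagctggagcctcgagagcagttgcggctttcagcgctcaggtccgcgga
Ahrr had 3 copies, starting 107, 82 and 27 bases before its start, and 3 or more copies were held by 3.91% of all promoters. Cyp1a1 had 1 copy at 54 to 50 bases before the start, Cyp1b1 1 copy at 76 to 72 bases, Tiparp 1 copy at 170 to 166 bases, and Arnt 1 copy at 29 to 25 bases. These are matches of letters and were not tested for binding.

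Cyp1a1 (ENSMUSG00000032315, GRCm38 chromosome 9, 57687928 to 57703824, plus strand) was much lower in GRDim than in GRWT mice on water. In muscle-rich GRWT libraries on water, Cyp1a1 was at 13.9 CPM in ileum replicate 1, 10.2 CPM in IEC replicate 4 and 2.99 CPM in IEC replicate 5 after TMM normalisation, which scales library sizes for composition. In the muscle-rich GRDim libraries on water, all labelled IEC, it was at 0.26, 0 and 0.584 CPM, from 4, 0 and 10 counts. The groups did not overlap, and the mean fell from 9.04 ± 5.55 to 0.282 ± 0.293 CPM (SD, n = 3 each). The log2 fold change was -4.91 ± 0.83 (SE) with an adjusted p of 0.00159 in edgeR's quasi-likelihood test, adjusted by Benjamini-Hochberg over the 15947 genes tested in this class. Throughout, a gene was called when its adjusted p was under 0.05 and its log2 fold change beyond 0.8, and Cyp1a1 was 1 of 1673 genes called, which is 10.5% of those tested. The call held in all 12 fits that left out 1 library, with log2 fold changes of -6.02 to -4.36. Among the IEC-labelled muscle-rich libraries alone the log2 fold change was -4.46 ± 1.14 with an adjusted p of 0.0414.

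On zinc, Cyp1a1 was at 3.6, 5.88 and 2.00 CPM in the muscle-rich GRWT libraries (ileum replicate 1, IEC replicates 4 and 5) and at 0.836, 0.71 and 0.971 CPM in the GRDim libraries (ileum replicates 1 to 3). Each GRWT value lay above each GRDim value, but the log2 fold change of -2.19 ± 0.74 did not pass, with an adjusted p of 0.0734. DESeq2 called it at an adjusted p of 0.0291, and so did edgeR without GRWT water IEC replicate 5, at 0.0227. Fits of 22 libraries that pool the classes take in the muscle-poor GRWT zinc ileum replicate 3, at 90.9 CPM. In them the log2 fold change was -4.56 with class (adjusted p = 0.0186) or -4.59 with label (adjusted p = 0.0783) as a covariate. This comparison called 702 genes, 4.4% of those tested, and none of the 6. At an unadjusted p under 0.05 it held 2 of the 6, Cyp1a1 and Tiparp, where 32.1% of all genes tested stood; DESeq2 called 4.04% of them.

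**Figure D1:**
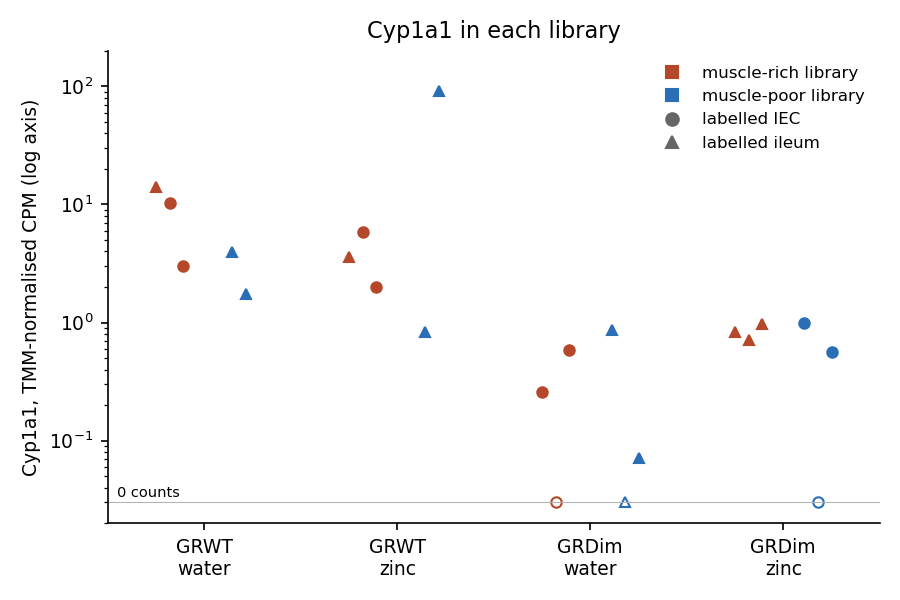
Cyp1a1 in each of the 22 libraries, as TMM-normalised CPM on a log axis, by genotype and drinking water; colour gives the muscle class and symbol shape the tissue label, and open symbols on the grey line are libraries with 0 counts. All 6 muscle-rich GRWT libraries lie above all 6 muscle-rich GRDim libraries, and GRWT zinc ileum replicate 3 stands alone at 90.9 CPM.

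Zinc itself left Cyp1a1 without a call. In muscle-rich GRWT mice the mean was 9.04 ± 5.55 CPM on water and 3.83 ± 1.95 CPM on zinc (SD, n = 3 each), and the ranges of 2.99 to 13.9 and 2.00 to 5.88 CPM overlapped. The log2 fold change was -1.23 ± 0.59 with an adjusted p of 0.472. In muscle-rich GRDim mice the mean was 0.282 ± 0.293 CPM on water and 0.839 ± 0.131 CPM on zinc, the ranges of 0 to 0.584 and 0.71 to 0.971 CPM did not overlap, and the log2 fold change was 1.49 ± 1.08 with an adjusted p of 0.474. Without GRDim water IEC replicate 5 or 6 it was 0.945 or 2.6. The GRWT value turned to 1.09 or 1.31 in fits of 22 libraries with class or label as a covariate. Those fits pool the classes and take in GRWT zinc ileum replicate 3, at 90.9 CPM. Whether zinc acted differently on Cyp1a1 in the 2 genotypes was tested by the interaction, which was 2.72 ± 1.22 on the log2 scale with an adjusted p of 0.331. Ordered by mean, muscle-rich Cyp1a1 ran from GRWT water through GRWT zinc and GRDim zinc to GRDim water, and no neighbours in that order differed beyond the test's threshold.

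In muscle-poor libraries, Cyp1a1 was at 3.95 and 1.76 CPM in GRWT mice on water (ileum replicates 2 and 3) and at 0.863, 0 and 0.0711 CPM in GRDim mice on water (all labelled ileum). The GRWT values were the higher ones again, and the log2 fold change was -3.22 ± 1.93 with an adjusted p of 0.972. Leaving out 1 library gave -5.95 (without GRDim water ileum replicate 1) to -2.5. Without GRWT zinc ileum replicate 3, which shares the estimate of spread, the adjusted p was 0.15. On zinc the GRWT libraries were at 0.829 and 90.9 CPM, the second being GRWT zinc ileum replicate 3, and the GRDim libraries, all labelled IEC, at 0.995, 0 and 0.558 CPM. One GRWT library thus lay inside the GRDim range and the other far above it, and the log2 fold change of -6.46 ± 1.63 had an adjusted p of 0.146. Without GRWT zinc ileum replicate 3 it was -0.695 with an adjusted p of 0.891, and without GRWT zinc ileum replicate 2 it was -7.45 with an adjusted p of 0.000112 and 31.4% of all genes called, the lone library left being assumed to vary like the others. Zinc in GRWT mice gave 4.00 ± 1.61 with an adjusted p of 0.269, which became -1.76 with an adjusted p of 0.73 without replicate 3 and 4.99 with an adjusted p of 0.0007 without replicate 2, when 30.1% of all genes were called. Zinc in GRDim mice gave 0.76 ± 2.26 with an adjusted p of 0.979 (0.774 without replicate 3). The interaction gave -3.24 ± 2.94 with an adjusted p of 0.749, and 2.53 ± 1.80 with 0.999 without replicate 3. The fold change of Cyp1a1 on zinc in this class was therefore set by which GRWT library was kept.

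None of the 6 genes was called in any muscle-poor comparison, and edgeR called few genes within this class: 4 for genotype on water (0.0288% of 13908 tested), 6 for zinc in GRWT mice (0.0431%), 8 for zinc in GRDim mice (0.0575%), 8 for genotype on zinc (0.0575%) and none for the interaction (0%, with 648 genes at an unadjusted p under 0.05). An unadjusted p under 0.05 was held by 3 of the 5 tested for zinc in GRWT mice, beside 17.1% of all genes, and by 3 for genotype on zinc, beside 22.9%. It was held by none for genotype on water (5.63% of all genes), zinc in GRDim mice (7.89%) and the interaction (4.66%). DESeq2 called more genes in every one of these comparisons, with 0.331% for genotype on water, 3.13% for zinc in GRWT mice, 0.539% for zinc in GRDim mice, 5.31% for genotype on zinc and 0.0216% for the interaction. Of the 6 genes it called Ahr and Cyp1a1 for genotype on zinc and no other. Counts over all genes in this class varied widely with the tool and the libraries: with either GRWT zinc library left out edgeR called 138 genes for genotype on water (0.952% without replicate 2, 0.962% without replicate 3), and for zinc in GRDim mice 207 or 205 (1.43% each). With 22 libraries in 1 fit and class as a covariate, the genotype difference in Cyp1a1 on water was -4.71 with an adjusted p of 0.0161. That fit pools the classes, so the value also rests on the muscle-rich libraries. The genotype difference of each gene was also compared between the classes directly, and no gene of the 6 passed in either drinking water, beside 1.31% of 16389 genes on water and 2.87% on zinc at an adjusted p under 0.05. The lowest adjusted p among the 6 was 0.0611, for Ahr on zinc.

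Cyp1b1 (ENSMUSG00000024087, chromosome 17, 79701537 to 79715061, minus strand) was almost confined to muscle-rich libraries. It was at 6.80 to 14.1 CPM in all 12 of them and at 0 to 0.399 CPM in the 10 muscle-poor libraries, which held 0 to 5 counts each. The log2 fold change between classes was 6.54 ± 0.27 with an adjusted p of 9.36e-15 in the fit of 22 libraries with condition as a covariate. From 1853 counts against 12 the ratio was 124-fold, with a 95% interval of 71.1 to 241 that covers counting error only. It was left out of the muscle-poor tests by the filter on low counts, so 5 of the 6 genes were tested there.

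Within the muscle-rich class Cyp1b1 was at 9.25, 14.1 and 13.9 CPM in GRWT mice on water and at 9.11, 8.25 and 7.66 CPM in GRDim mice on water. The lowest GRWT library, ileum replicate 1, stood just above the highest GRDim library, and the log2 fold change was -0.57 ± 0.17 with an adjusted p of 0.0179. That passes the adjusted p but not the size required for a call. With label as the covariate in 22 libraries, which pools the classes, Cyp1b1 was at -1.37 ± 1.60 with an adjusted p of 0.733. Without GRWT water IEC replicate 4 or 5 the adjusted p was 0.0769 or 0.0756, and without GRDim water IEC replicate 5 or 6 it was 0.0545 or 0.0724. On zinc it was at 9.58, 12.6 and 9.17 CPM in GRWT and at 9.61, 8.97 and 6.80 CPM in GRDim mice, which overlapped, with a log2 fold change of -0.31 ± 0.18 and an adjusted p of 0.24.

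**Figure D2:**
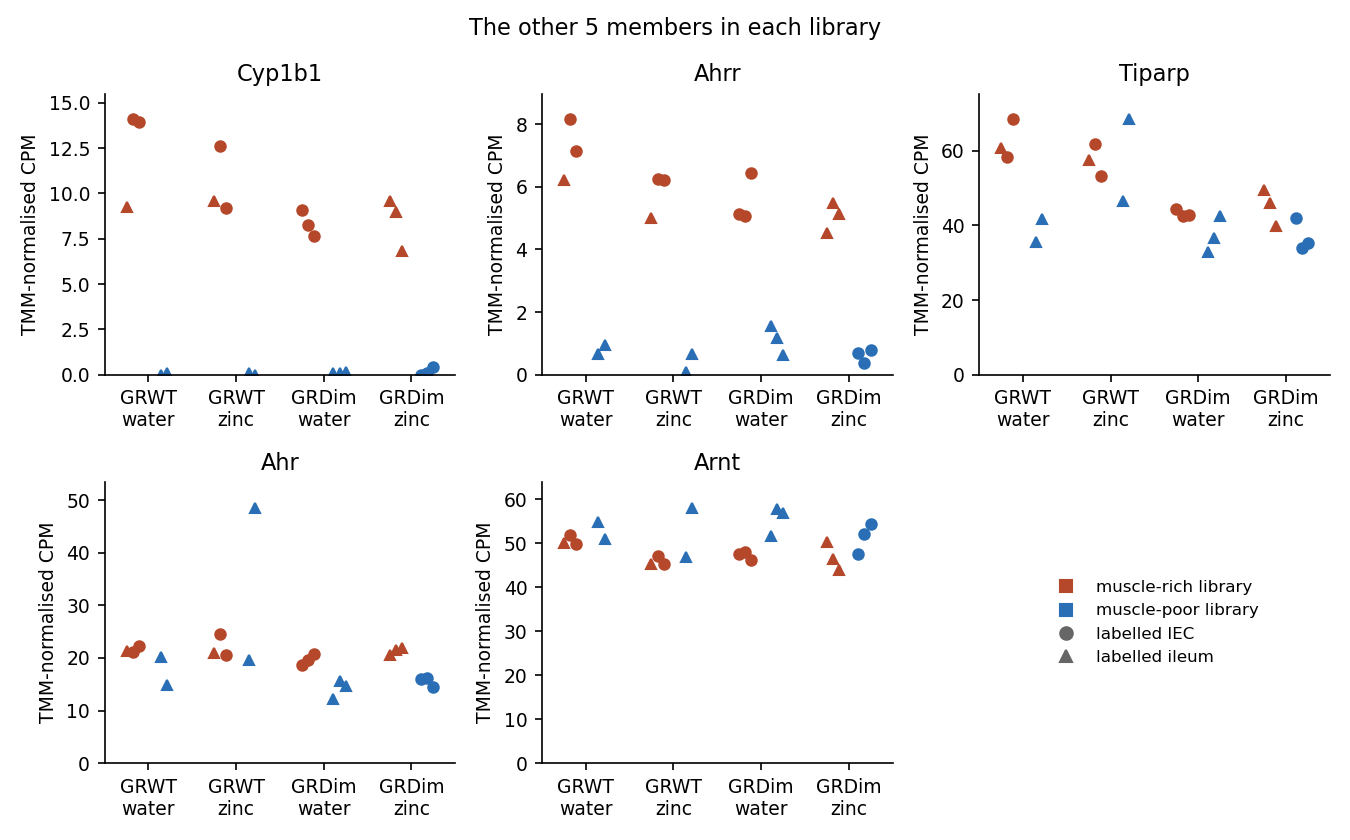
Cyp1b1, Ahrr, Tiparp, Ahr and Arnt in each library as TMM-normalised CPM on linear axes from 0, by genotype and drinking water; colours and shapes are those of the plot of Cyp1a1. Cyp1b1 and Ahrr separate the muscle classes, Tiparp separates the genotypes among muscle-rich libraries on water, and Ahr is at 48.6 CPM in GRWT zinc ileum replicate 3.

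The feedback gene Ahrr (ENSMUSG00000021575, chromosome 13, 74211118 to 74292331, minus strand) also followed the muscle class. It was at 4.53 to 8.16 CPM in muscle-rich and 0.0753 to 1.57 CPM in muscle-poor libraries. The log2 fold change was 2.99 ± 0.21 with an adjusted p of 7.2e-11, and from 1104 counts against 95 the ratio was 9.37-fold (95% interval for counting error 7.59 to 11.7). Between genotypes on water, muscle-rich Ahrr was at 6.21, 8.16 and 7.14 CPM in GRWT and at 5.14, 5.08 and 6.43 CPM in GRDim mice. The ranges overlapped, and the log2 fold change of -0.36 ± 0.15 had an adjusted p of 0.0749. Among the IEC-labelled libraries alone, the adjusted p was 0.0319 at a log2 fold change of -0.45. On zinc the GRWT libraries were at 5.02, 6.24 and 6.21 CPM and the GRDim libraries at 4.53, 5.48 and 5.12 CPM, also overlapping (adjusted p = 0.388). In the muscle-poor class Ahrr did not pass for genotype on water (0.43 ± 0.59) or zinc in GRWT mice (-1.29 ± 0.80), from levels of 0.658 and 0.958 CPM on water and 0.0753 and 0.652 CPM on zinc in GRWT mice. The zinc value of Ahrr was -3.26 ± 1.09 (adjusted p = 0.316) without GRWT zinc ileum replicate 3, and genotype on zinc moved from 0.89 ± 0.77 to 2.87 ± 1.1 (adjusted p = 0.476). Its GRDim libraries there were at 1.57, 1.16 and 0.64 CPM on water and at 0.689, 0.378 and 0.797 CPM on zinc.

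Tiparp (ENSMUSG00000034640, chromosome 3, 65528410 to 65555518, plus strand), the ADP-ribosyltransferase of the loop, was lower in muscle-rich GRDim libraries on both waters. On water it was at 60.6, 58.4 and 68.5 CPM in GRWT and at 44.4, 42.6 and 42.9 CPM in GRDim mice, with a gap between the groups wider than the spread within either. The means were 62.5 ± 5.31 and 43.3 ± 0.986 CPM (SD over 3 libraries), a log2 fold change of -0.52 ± 0.08 with an adjusted p of 0.000163. On zinc it was at 57.6, 61.8 and 53.2 CPM in GRWT and at 49.5, 46.1 and 39.8 CPM in GRDim mice, again without overlap, with a log2 fold change of -0.35 ± 0.08 and an adjusted p of 0.00769. Both differences passed the adjusted p in all 12 fits that left out 1 library, and both were below the size required for a call. An adjusted p under 0.05 alone with a lower level in GRDim was reached by 18.9% of the genes tested on water and by 9% on zinc, and by 3 of the 6 genes on water (Cyp1a1, Cyp1b1, Tiparp) and 1 on zinc (Tiparp). An exon of the gene on the other strand, 4931440P22Rik, overlaps 223 bases of Tiparp exons, and whether counting used the strand is not given in the sources used here.

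In the muscle-poor class Tiparp was at 35.4 and 41.8 CPM (GRWT water), 46.6 and 68.5 CPM (GRWT zinc), 32.8, 36.6 and 42.4 CPM (GRDim water) and 41.9, 33.9 and 35.4 CPM (GRDim zinc). The genotypes overlapped on water, with a log2 fold change of -0.08 ± 0.19. The highest value, 68.5 CPM, was that of GRWT zinc ileum replicate 3, and the other 9 libraries had a median of 36.6 CPM. Zinc in GRWT mice gave Tiparp a log2 fold change of 0.58 ± 0.21 (adjusted p = 0.242) and genotype on zinc -0.66 ± 0.19 (adjusted p = 0.146). Without that library these were 0.28 ± 0.17 (adjusted p = 0.646) and -0.35 ± 0.16 (adjusted p = 0.524).

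The receptor gene Ahr (ENSMUSG00000019256, chromosome 12, 35497974 to 35535038, minus strand) showed little difference between muscle-rich groups. On water it was at 21.3, 21.2 and 22.4 CPM in GRWT and at 18.6, 19.5 and 20.7 CPM in GRDim mice, and on zinc at 21.0, 24.6 and 20.5 CPM and at 20.5, 21.6 and 21.8 CPM. The GRWT and GRDim values on water did not overlap, but the log2 fold change was -0.13 ± 0.08 with an adjusted p of 0.214, and on zinc the values overlapped (-0.05 ± 0.08, adjusted p = 0.709). In the muscle-poor class Ahr was at 12.2 to 20.2 CPM in 9 libraries and at 48.6 CPM in GRWT zinc ileum replicate 3. Zinc in muscle-poor GRWT mice gave a log2 fold change of 0.96 ± 0.36 with an adjusted p of 0.256, and genotype on zinc -1.15 ± 0.32 with 0.146. Without that library Ahr was at 0.17 ± 0.21 (adjusted p = 0.852) and -0.36 ± 0.19 (adjusted p = 0.573). Ahr shares 127 exon bases with Gm48236 on the other strand.

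Arnt (ENSMUSG00000015522, chromosome 3, 95434388 to 95497240, plus strand), which encodes the partner of the receptor and of hypoxia-inducible factors, varied least. It stayed between 43.8 and 58.1 CPM in all 22 libraries. On water, muscle-rich libraries were at 50.1, 51.8 and 49.8 CPM in GRWT and at 47.6, 48.0 and 46.2 CPM in GRDim mice, with a log2 fold change of -0.09 ± 0.06 and an adjusted p of 0.224. On zinc they were at 45.3, 47.1 and 45.4 CPM and at 50.2, 46.5 and 43.8 CPM. The GRWT values on zinc all lay below those on water, with a log2 fold change of -0.14 ± 0.06 that did not pass (adjusted p = 0.365). It was the only one of the 6 with an unadjusted p under 0.05 (0.0269) for zinc in muscle-rich GRWT mice. The muscle-poor libraries held Arnt at 54.8 and 50.9 CPM in GRWT mice on water, 46.9 and 58.1 CPM in GRWT mice on zinc, 51.8, 57.8 and 57.0 CPM in GRDim mice on water and 47.6, 52.2 and 54.5 CPM in GRDim mice on zinc, with log2 fold changes between -0.10 and 0.04 in the 4 comparisons of conditions. With GRWT zinc ileum replicate 3 left out, Arnt was at -0.16 ± 0.12 for zinc in GRWT mice and turned from -0.06 to 0.11 ± 0.11 for genotype on zinc, neither passing.

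Across the 6 genes, the muscle-rich comparison of genotypes on water was lower in GRDim for all 6. The median log2 fold change was -0.44 against -0.0028 over all genes tested, and 1 was called, beside 10.5% of all genes. On zinc 5 of the 6 were lower, with a median of -0.26 against -0.017. The 2 comparisons share no library. For zinc in GRWT mice 5 of the 6 were lower (median -0.19 against 0.0075 over all genes), and 26 genes or 0.163% of those tested were called, none of them among the 6 (12 to 37 genes without 1 library). For zinc in GRDim mice 4 of the 6 were higher (median 0.03 against -0.013), and 212 genes or 1.33% were called, again none of the 6. That count was 110 to 304 without 1 library. It was 1 gene without the 3 libraries with over 50 CPM of summed liver markers, a fit that keeps 1 GRDim zinc library, assumed to vary like the other groups. DESeq2 also called none of the 6 in either zinc comparison, beside 0.213% and 1.16% of all genes. An unadjusted p under 0.05 was reached by 1 and 0 of them, beside 11.5% and 22.7% of all genes. The interaction called 42 genes (0.263%, adjusted p alone) and none of the 6, with none at an unadjusted p under 0.05 (15.5% of all genes) and none by DESeq2 (1.95%). Without 1 library the interaction called 5 genes (without GRDim water IEC replicate 4 or 5, or GRDim zinc ileum replicate 2) to 346 genes (without GRDim zinc ileum replicate 3). The zinc response itself was present: Mt1, a metallothionein that binds zinc, rose with zinc by 5.53 ± 0.37 in GRWT and 4.37 ± 0.35 in GRDim muscle-rich libraries on the log2 scale (adjusted p = 0.00128 and 0.000635).

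**Figure D3:**
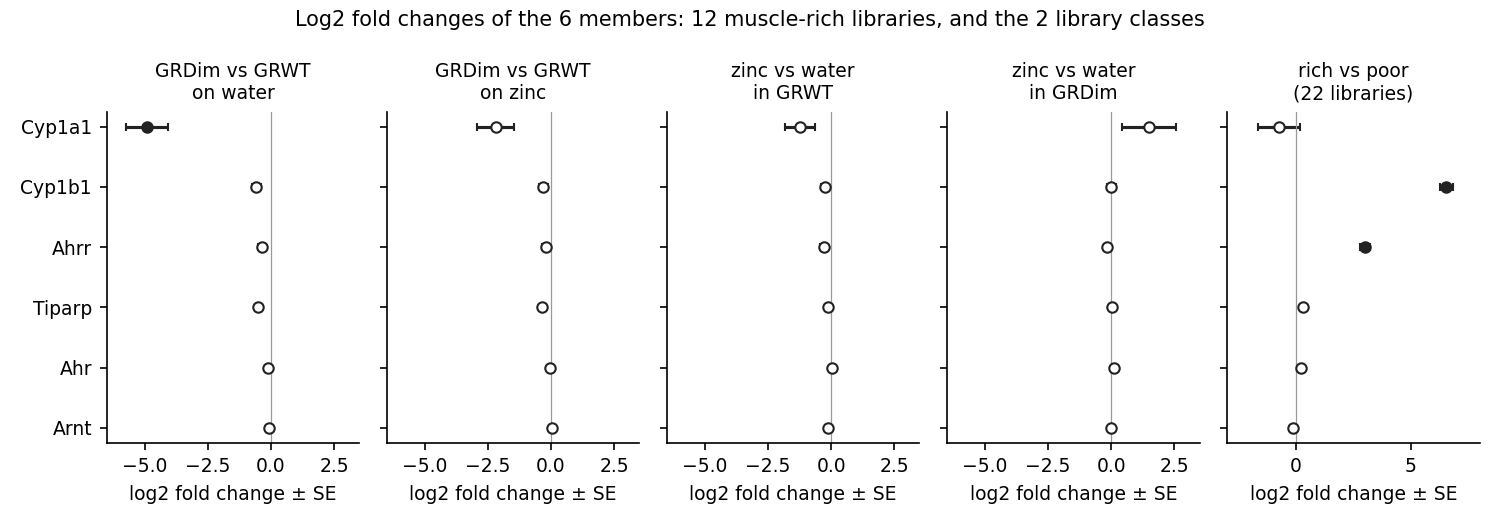
Log2 fold changes with their SE for the 6 genes in the 4 comparisons of muscle-rich libraries and between the muscle classes (22 libraries); filled points were called and open points were not, and the last axis has another range. Cyp1a1 on water at -4.91 is the only filled point among the conditions, and Cyp1b1 at 6.54 and Ahrr at 2.99 are filled for the class.

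Between the classes, 4 of the 6 genes passed the adjusted p and 2 were called, against 62.7% and 23.1% of the 15641 genes tested. Tiparp was slightly higher in muscle-rich libraries (0.31 ± 0.08, adjusted p = 0.0028) and Arnt slightly lower (-0.14 ± 0.04, adjusted p = 0.00509). Ahr did not pass (0.20 ± 0.14, adjusted p = 0.242), nor did Cyp1a1 (-0.76 ± 0.92, adjusted p = 0.485). Without GRWT zinc ileum replicate 3, Ahr passed (0.39 ± 0.06, adjusted p = 9.41e-06) and Cyp1a1 turned and was called higher in muscle-rich libraries (1.32 ± 0.51, adjusted p = 0.0306). In bulk tissue, fewer cells of a type and less RNA per cell cannot be told apart. Besides Myh11, which set the classes, the 9 other smooth muscle markers, 6 of 6 fibroblast and 6 of 6 endothelium markers were called higher in muscle-rich libraries, so that Cyp1b1 and Ahrr moved with several cell types at once, and the part of each was not tested.

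Per length, as the median of RPKM (CPM divided by exon length in kilobases) in the 12 muscle-rich libraries, the levels ran Tiparp 11.8, Arnt 5.91, Ahr 3.42, Cyp1b1 1.58, Ahrr 0.619 and Cyp1a1 0.533. Tiparp (mean 12 ± 2.11 RPKM, SD), Arnt (5.95 ± 0.300 RPKM) and Ahr (3.43 ± 0.240 RPKM) were set apart by more than their spread, while Cyp1b1 (1.70 ± 0.404 RPKM) and Ahrr (0.624 ± 0.110 RPKM) fell within the spread of Cyp1a1 (1.25 ± 1.58 RPKM). In the muscle-poor libraries the median levels were Tiparp 9.0, Arnt 6.66, Ahr 2.56, Cyp1a1 0.303, Ahrr 0.0713 and Cyp1b1 0.0131 RPKM. The place of Cyp1a1 depended on the condition. In muscle-rich GRWT libraries on water its mean level was 3.24 ± 1.99 RPKM, beside 2.13 ± 0.472 for Cyp1b1 and 0.759 ± 0.103 for Ahrr, and in GRDim libraries on water 0.101 ± 0.105 RPKM, beside 1.43 ± 0.125 and 0.588 ± 0.0807.

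The other genes of the pathway were read from lists of chaperones of the receptor, relatives with the same bHLH-PAS domains, coregulators, further target genes and enzymes of tryptophan breakdown that make or remove ligands. On water in muscle-rich libraries, 1 of 7 tested of the 10 further target genes was called, against 10.5% of all genes. This was Ugt1a6b, a glucuronosyltransferase, which was higher in GRDim by 1.84 ± 0.60 (adjusted p = 0.0265), from only 8, 0 and 6 counts in GRWT against 21, 13 and 18 in GRDim libraries. On zinc Ugt1a6b was at 1.29 ± 0.59 and did not pass (adjusted p = 0.148). Ugt1a genes share exons, so its count is uncertain. Cyp1a2, the close relative of Cyp1a1, Aldh3a1 and Gsta2 did not pass the filter on low counts. The further target genes had a median log2 fold change of 0.20, and Nqo1, a quinone reductase, was at 0.38 ± 0.21 (adjusted p = 0.197).

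Of the 10 enzymes of tryptophan breakdown 7 were tested, and 1 was called in each direction on water. Ido1, the first enzyme of the kynurenine route, was at 32.3, 33.9 and 34.2 CPM in muscle-rich GRWT and at 191.6, 179.3 and 167.9 CPM in GRDim libraries. It rose by 2.43 ± 0.12 (adjusted p = 9.45e-08), with a wide gap between the groups, and it was also called on zinc (2.42 ± 0.12, adjusted p = 3.4e-07). In muscle-poor libraries it was at 214.0 and 285.8 CPM in GRWT against 322.8, 296.9 and 263.2 CPM in GRDim mice on water, and the difference between classes in the genotype effect was itself called (2.20 ± 0.22, adjusted p = 3.45e-05).

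Kyat1, a kynurenine aminotransferase, went the other way, from 49.5, 33.0 and 36.2 CPM in muscle-rich GRWT to 16.4, 11.2 and 14.8 CPM in GRDim libraries. It fell by 1.47 on the log2 scale (SE 0.19, adjusted p = 0.00017). In muscle-poor libraries Kyat1 was at 89.0 and 75.5 CPM in GRWT and at 27.6, 30.3 and 33.6 CPM in GRDim mice on water, a log2 fold change of -1.46 ± 0.44 with an adjusted p of 0.702 there. The groups on water did not overlap in either class. On zinc the difference in muscle-rich libraries passed the adjusted p but not the size limit (-0.60 ± 0.19, adjusted p = 0.0469).

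Among the 6 tested of 7 bHLH-PAS relatives, 1 was called lower, where 10.5% of all genes were called in either direction. This was Npas2, a clock gene, at 63.6, 76.4 and 80.7 CPM in muscle-rich GRWT and at 35.6, 37.2 and 36.4 CPM in GRDim libraries on water. Npas2 fell by 1.01 on the log2 scale (SE 0.10, adjusted p = 7.96e-06), and this fall differed from the muscle-poor class (difference -1.16 ± 0.21, adjusted p = 0.00702). On zinc Npas2 was lower by less than the size limit (-0.42 ± 0.10, adjusted p = 0.0104), and over the 5 lists 1 of 31 genes tested, Ido1, was called there, 3.23% beside 4.4% of all genes. None of the 4 chaperones and none of the 7 coregulators was called by edgeR in any comparison of conditions or classes. Of all genes, 10.5% were called for genotype on water in muscle-rich libraries and 23.1% between the classes. No gene of the 5 lists was called for zinc in either genotype or class with all libraries in. The share of all genes there was 0.163% (GRWT) and 1.33% (GRDim) in muscle-rich and 0.0431% and 0.0575% in muscle-poor libraries. Ido1 was called lower on zinc in muscle-poor GRDim libraries when GRWT zinc ileum replicate 3 was left out (-1.0 ± 0.14, adjusted p = 0.00543).

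**Figure D4:**
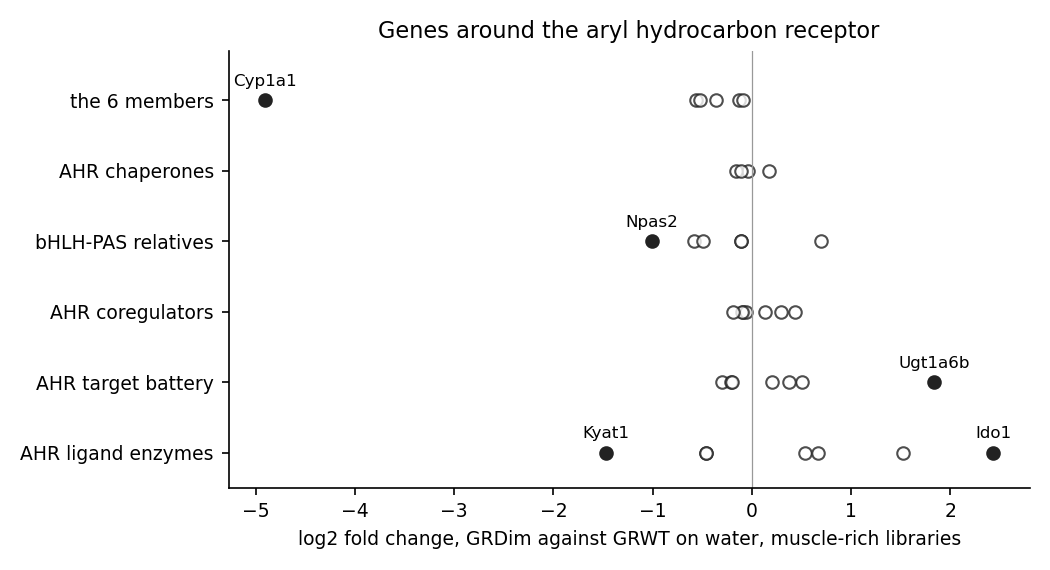
Log2 fold changes of GRDim against GRWT on water in muscle-rich libraries for the 6 genes and the genes of 5 lists around the receptor; filled, named points were called. Cyp1a1 at -4.91 is the lowest point and Ido1 at 2.43 the highest.

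Between classes, 9 of the 32 tested genes of these lists were called, 28.1% beside 23.1% of all genes. Kynu (3.77 ± 0.23, adjusted p = 5.21e-12) and Kmo (2.87 ± 0.24, adjusted p = 7.73e-10), which act further down the kynurenine route, and Tdo2 (2.64 ± 0.61, adjusted p = 0.000844) were higher in muscle-rich libraries, as were the clock genes Arntl (1.18) and Npas2 (0.89). Ido1 (-1.48), Kyat1 (-1.28) and Gsta2 (-4.05), a glutathione transferase, were lower, and the ninth gene was Gsta1 (-2.25). Liver cell markers moved with the classes too: 2 of the 4 tested were called higher in muscle-rich libraries, and their sum was 3.30 to 215.8 CPM there against 0.878 to 5.76 CPM in muscle-poor libraries. Tdo2, which liver cells express, had 44 to 76 counts in the 3 libraries with the most liver marker RNA and 3 to 19 in the other 9 muscle-rich libraries. The part of liver RNA in these differences was not tested. Without GRWT zinc ileum replicate 3, 7 of the 9 were called, the exceptions being Gsta1 and Gsta2.

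Some markers of other cell types and segments moved with the genotype in the muscle-rich libraries on water. Of 8 intraepithelial lymphocyte markers, 7 were called higher in GRDim, their sum being 371 to 435 CPM against 63.7 to 99.9 CPM in GRWT on water, and 205 to 216 against 59.7 to 72.7 CPM on zinc. None of these markers was at 0 in any muscle-rich library on water. The 6 ileal markers summed to 5476 to 6859 CPM in GRDim and 8863 to 10304 CPM in GRWT (0 of 6 called). The 8 epithelium markers summed to 17012 to 18337 against 19277 to 20337 CPM (1 called lower), but their median log2 fold change was 0.052. A sum weighs the most abundant markers most. The 6 proximal markers summed to 6.96 to 10.2 against 14.8 to 29.7 CPM, with 2 called lower and 1 higher of 5 tested. Slc2a2 had 3, 2 and 0 counts in the GRDim libraries on water and 41, 106 and 82 in the GRWT libraries. The 6 ILC3 and Th17 cell markers summed to 86.7 to 94.6 against 104 to 112 CPM (1 called higher of 5 tested), and the 10 smooth muscle markers to 1792 to 2012 against 2329 to 2537 CPM (0 called). None of the 6 fibroblast and none of the 6 endothelium markers was called by edgeR between genotypes on water. The 5 liver markers found, counted because 3 libraries held over 50 CPM of them, summed to 6.02 to 72.5 CPM in GRDim against 3.30 to 11.3 CPM in GRWT (0 called, with Serpina1a at 0 in some libraries). Without those 3 libraries the log2 fold change of Cyp1a1 was -4.83 with an adjusted p of 0.0361. The part of the lymphocyte, ileal and proximal markers in the differences of Cyp1a1 and Tiparp was not tested. The median log2 fold change on water was -0.43 for the smooth muscle, 0.026 for the fibroblast and -0.15 for the endothelium markers. The part of these cell types in the difference of Cyp1b1 was not tested either.

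**Figure D5:**
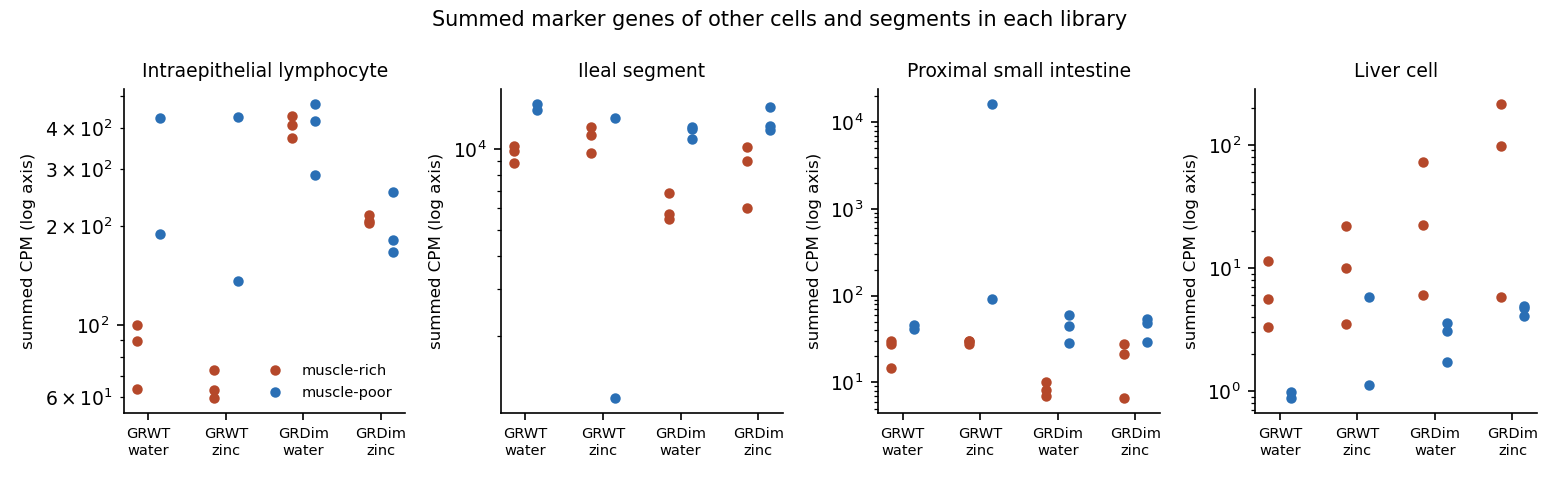
Summed CPM (log axes) of markers of intraepithelial lymphocytes, ileal segment, proximal small intestine and liver cells in each library by genotype and drinking water; colour gives the muscle class. GRDim muscle-rich libraries on water lie above GRWT for lymphocyte markers and below for ileal and proximal markers, and GRWT zinc ileum replicate 3 stands out at 1178 CPM of ileal and 16334 CPM of proximal markers.

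Over the 22 libraries, after the mean of each class was taken out, the genes most like Cyp1a1 among 13719 in Pearson's r of log2 CPM were Slc15a1 (0.92), a peptide transporter, Lpar3 (0.92) and Kyat1 (0.91). Without GRWT zinc ileum replicate 3 these were 0.86, 0.85 and 0.88, and Plekha1, Kyat1 and Vapa led. Those most like Ahr were Naa60 (0.96), Sgk3 (0.95) and Tmem64 (0.95), which fell to 0.76, 0.69 and 0.75 without that library. Tiparp was closest to Scrn3, Slc35a5 and Tmem59 (0.92 each), Ahrr to Tmem80 (0.81), F2r (0.80) and Gtpbp2 (0.77), Cyp1b1 to Hoxc6 (0.76), Lsamp (0.74) and Trim14 (0.73), and Arnt to Vash2 (0.73), Pex11g (0.69) and Srpk1 (0.69). Among the 6 themselves, Cyp1a1 and Tiparp had an r of 0.76 and 0.60 without replicate 3, and Cyp1a1 and Ahr 0.70 and 0.37. These values describe the libraries, which share conditions and tissue content, and carry no test.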

How the data were processed

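RNA from 22 ileal samples was sequenced by the authors as stranded single-end libraries. Per the labels, the submitters' processing notes name Trimmomatic, HISAT2 2.0.4, SAMtools, featureCounts and the mm10 build; the strand setting is not given in the sources used here. The deposited values are raw counts per Ensembl gene, not normalised. Columns were matched to samples by name. For 2 GRDim water ileum columns only the group is known.

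Names and exon lengths came from GENCODE vM21, which held 54723 of the identifiers. Counts were tested in edgeR 4.0.16 (R 4.3.3) with TMM, filterByExpr over the 4 conditions and the robust quasi-likelihood test, within 12 muscle-rich and 10 muscle-poor libraries, each with a mean per condition. A fit of all 22 libraries with condition and class, additive, compared the classes and one with a mean per condition and class compared the genotype effects between classes. A gene was called at adjusted p under 0.05 and a log2 fold change beyond 0.8 (interaction and its like, adjusted p alone). SE is the log2 fold change over the root of F. Log2 CPM used a prior count of 2. The scripts were tested on simulated counts. Intervals cover counting error only.

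The 6 genes, the lists, the markers and the tests were chosen with earlier results of these data known. Named genes were the 6, the called genes of the 5 lists (at most 8 per comparison by smallest p; the ninth between classes was added after its values were seen) and the 3 genes most like each of the 6. Alternatives were DESeq2 1.42.0, other filters and scalings, label or class covariates, a replicate block and leaving out each library. Design text in the series mentions dexamethasone, which no label gives and which is not analysed here.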

Additional observations from a re-analysis of the deposited data

Results flagged for a closer look

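In 4 of 24 sets (6 genes in 4 conditions) the highest or lowest library lay beyond Dixon's 95% limit, where chance gives about 1 in 20. Each set mixes both muscle classes. In 3 sets the library was GRWT zinc ileum replicate 3, which also stood apart in its segment markers. It held Cyp1a1 at 90.9 CPM against 0.829 to 5.88 CPM in the other 4 GRWT zinc libraries, Ahr at 48.6 CPM against 19.6 to 24.6 CPM, and Arnt at 58.1 CPM against 45.3 to 47.1 CPM. In the fourth set GRWT water ileum replicate 3 held Ahr at 14.8 CPM against 20.2 to 22.4 CPM.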

How the results depend on the processing

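The lower Cyp1a1 in muscle-rich GRDim mice on water kept its direction in all 12 fits without 1 library and in 10 other alternatives (-4.98 to -4.23), and was called in all but 1, with adjusted p of 2.52e-08 to 0.0581 over those 10. That 1 was the fit with class and a replicate block, which pools the classes. It leaves out the GRDim water ileum libraries without a replicate number, and held -4.23 (adjusted p = 0.0581). It so called 0 of the 6, beside 6.1% of all genes. The block pairs libraries by number only: same-numbered libraries had correlations of -0.104 to 0.052, and none correlated best with its own number. Under that block Tiparp on water had an adjusted p of 0.0792. The zinc change of Cyp1a1 in GRWT mice, pooled over the classes, was -0.086 and its interaction 0.49. Both have the sign of the muscle-rich values and the opposite sign of the muscle-poor values.

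The number of the 6 genes called changed as follows. The share of all genes called is given in brackets. Fits with class or label as a covariate pool both classes and so hold for neither class alone. For genotype on zinc in muscle-rich libraries it was 1 by DESeq2 (4.04%) and 1 with class as a covariate (3.93%), and 0 to 1 without 1 library (4.21% at 1). For genotype on water, set beside the muscle-poor count, it was 1 with class (5.73%) and 1 with label as a covariate (1.43%), both pooled over the classes. For zinc in muscle-poor GRWT mice it was 1 in the fit with a mean per condition and class (5.83%), and 0 to 3 without 1 library (30.1% at 3). For genotype on zinc in muscle-poor libraries it was 2 by DESeq2 (5.31%), 2 in the fit with a mean per condition and class (7.84%), 1 with class as a covariate (3.93%), and 0 to 3 without 1 library (31.4% at 3). For the muscle-poor interaction it was 0 to 2 (39.3% at 2) and for the classes 2 to 3 (21.8% at 3) without 1 library.

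Cyp1a1 had another sign, without passing, in some fits that pool both classes. Against the muscle-rich value this held for zinc in GRWT mice with a class (1.09) or label (1.31) covariate. It also held against the muscle-rich interaction with label (-0.19) and against the muscle-poor interaction with class (0.15). Without GRWT zinc ileum replicate 3 Cyp1a1 turned for zinc in muscle-poor GRWT mice (-1.76), for the muscle-poor interaction (2.53) and between classes (1.32). Without GRDim zinc IEC replicate 4 it turned for zinc in muscle-poor GRDim mice (-0.15). Over all fits without 1 library these results ranged from -1.76 to 4.99, -4.23 to 2.53, -1.28 to 1.32 and -0.152 to 3.49. The cause was not tested. Fits with no mean per class are shared by both classes.

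Tiparp passed the adjusted p in 8 of 10 other alternatives on water and in 6 of 9 on zinc, and Cyp1b1 on water in 6 of 10. Of 156 values of single genes under alternatives other than leaving out 1 library, 132 kept direction and side of the threshold. A label covariate with the classes pooled gives no class value. The fits without muscle-rich liver signal, with class and label together, and on IEC labels alone, and the likeness without 1 library, were chosen after seeing the data. With 15 counts of Cyp1a1 or fewer in GRDim libraries, depth limits any difference among them.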
